A study of Mus musculus with 32 samples.

Results

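Semaphorins, plexins, neuropilins, Slits and Robos are guidance ligands and their receptors, and 39 such genes of 20659 named genes on the array were followed across 32 mouse arrays. The members are the genes whose symbols fit these families: 20 semaphorins of classes 3 to 7, 9 plexins, 2 neuropilins, 3 Slits and 4 Robos, plus Plxna4os1, an RNA named for its position opposite Plxna4 that matched the plexin pattern. They were measured by 48 probes, and for the 9 genes with several probes the one with the highest mean was used. RNA came from C57Bl/6 mice or their cells, with 4 arrays in each of 8 groups. In culture at room temperature the groups were Pparg KnockDown with its own control, and Gyk KnockDown with its own control. The other groups, labelled in vivo, were Pparg KnockOut with its control at room temperature, and Pparg KnockOut with its control after cold exposure. Gyk, listed on the array as Gk, is glycerol kinase, and Pparg encodes the nuclear receptor that drives fat cell formation. How the knockdown and knockout were made, which part of Pparg was deleted and in which cells, the age of the mice, and whether replicates were separate animals or dishes are not given in the sources used here. The p-values therefore reflect only how much these samples varied, part of which may be technical.

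Semaphorins are secreted or membrane-bound proteins that bind plexins, whose cytoplasmic part acts on small GTPases and so changes the cytoskeleton and adhesion. Most class 3 semaphorins are secreted and need a neuropilin as the binding partner beside a class A plexin, whereas class 4 ligands act mainly on class B plexins and Sema7a acts on Plxnc1. Slits are large secreted proteins that bind Robo receptors. Both systems were first described in growing axons and are also used by vessels, immune cells and other tissues. In fat, Slit2 is known in mice as a secreted factor that can raise thermogenic gene expression, and Sema3 ligands and neuropilins take part in vessel and nerve supply.

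Promoter sequences are shown for 3 plexins because Plxnb2 and Plxnd1 were called in more of the 4 knockdown and knockout comparisons than most other members and Plxnb1 had the largest fitted change. They are the 250 bases before the annotated start in RefSeq's GRCm38.p6 table, 5′ to 3′ on the gene's strand, with AGGTCA or its reverse complement TGACCT in capitals. AGGTCA is the half-site that nuclear receptors such as PPARγ with RXR bind as a pair.
Plxnb2, chr15:89180789-89181038, minus strand: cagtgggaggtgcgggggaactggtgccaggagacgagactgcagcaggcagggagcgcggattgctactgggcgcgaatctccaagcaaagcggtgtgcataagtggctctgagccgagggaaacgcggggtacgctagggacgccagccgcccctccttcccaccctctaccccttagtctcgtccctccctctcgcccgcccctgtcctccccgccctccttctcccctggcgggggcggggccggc
Plxnd1, chr6:115995006-115995255, minus strand: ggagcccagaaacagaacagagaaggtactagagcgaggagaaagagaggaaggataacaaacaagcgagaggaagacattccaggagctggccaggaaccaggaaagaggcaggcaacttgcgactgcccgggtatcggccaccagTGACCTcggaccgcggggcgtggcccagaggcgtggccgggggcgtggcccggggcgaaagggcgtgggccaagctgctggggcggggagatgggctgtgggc
Plxnb1, chr9:109095186-109095435, plus strand: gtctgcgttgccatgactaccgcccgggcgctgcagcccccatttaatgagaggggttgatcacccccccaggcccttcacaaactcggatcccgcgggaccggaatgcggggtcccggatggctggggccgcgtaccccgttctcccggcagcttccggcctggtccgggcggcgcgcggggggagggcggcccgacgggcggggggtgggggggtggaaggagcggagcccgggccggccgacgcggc
The Plxnd1 window holds 1 match, on the minus strand of the window, and the Plxnb1 window and this Plxnb2 window hold 0. A second annotated start of Plxnb2, not shown, has 1 match. Searched on both strands, AGGTCA occurred in 8 of 45 windows of the 32 members in the table (17.8%) and in 4607 of 32851 windows of all genes (14%). A direct repeat of AGGTCA with 1 base of any kind between the copies, whose copies also count as half-sites, occurred in 0 of the 45 member windows and in 11 of all windows (0.0335%). These are letter matches in 1 short window per start, not sites.

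The values are levels on the log2 scale, the log2 signal of a probe minus the 75th percentile of its array, so that 0 is as bright as that percentile. They compare groups for 1 gene, not genes with each other. A probe called well above background by the scanner software was counted as detected. The 75th percentile of intensity ran from 140.7 to 808.2 between arrays, lowest on Gyk knockdown arrays 3 and 4 (140.7 and 241.7). It was 498.6 to 604.8 on the room-temperature arrays labelled knockout, against 293.2 to 407.6 on their controls. Each experiment took 2 slides, both holding both groups, and 1 scan day.

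The targeted genes come first because they check the labels. In the Pparg knockdown, Pparg averaged 4.24 ± 0.16, against 6.16 ± 0.19 in its control (SD, n = 4 each; log2 −1.92, SE 0.12, limma adjusted p = 7.49e-06). In the Gyk knockdown, Gk averaged −2.03 ± 0.89, against 0.37 ± 0.08 in its control (SD, n = 4 each; log2 −2.40, SE 0.39, limma adjusted p = 0.0117). On the mouse arrays the Pparg signal went against the label. It averaged 7.46 ± 0.07 on the arrays labelled knockout, against 5.38 ± 0.13 on the control arrays at room temperature (SD, n = 4 each; log2 2.07, SE 0.09, limma adjusted p = 4.46e-06). In the cold it averaged 7.96 ± 0.07 on the arrays labelled knockout and 5.83 ± 0.48 on the control arrays (SD, n = 4 each; log2 2.13, SE 0.22, limma adjusted p = 0.000387). Pparg has 1 named probe, and whether it lies in the deleted part is not known here. A probe outside that part checks nothing. Every direction below for these mice is therefore one between libraries labelled knockout and libraries labelled control. The uncoupling protein gene Ucp1 was lower on the arrays labelled knockout at room temperature (9.15 ± 0.24 against 10.17 ± 0.31 in control; log2 −1.02, SE 0.18, limma adjusted p = 0.0022) and in the cold (8.12 ± 0.59 against 9.13 ± 0.10 in control; log2 −1.01, SE 0.27, limma adjusted p = 0.0201; SD, n = 4 each). The fat cell gene Adipoq was lower there too, by 1.68 at room temperature and 1.99 in the cold on the log2 scale.

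The labels call all samples preadipocytes. The 5 markers of mature fat cells (Adipoq, Plin1, Fabp4, Cidec and Lipe) were detected on all 32 arrays, and Ucp1, Cidea, Cox8b and Ppargc1a of the 5 brown fat markers were as well. Of 8 preadipocyte and fibroblast markers, 7 were detected on all culture arrays and 8 on all mouse arrays. On the mouse arrays, markers of endothelium (8 or 9 of 9 on all 4 arrays of each group), macrophages (5 or 6 of 6) and red blood cells (3 of 3) were detected, so the RNA held transcripts of several cell types. In culture the lists were split. Of the endothelial list Kdr was detected on 16 of 16 culture arrays, Pecam1 on 9, Flt1 on 8, Cldn5 on 2 and Cdh5 on 1, while Tek, Tie1, Emcn and Erg were on 0. Of the macrophage list Csf1r and Itgam were on 16 and Adgre1 on 12, while Mrc1, Cd163 and Lyz2 were on 0. Fewer cells of a type and less RNA per cell cannot be told apart in such bulk samples. Skeletal muscle transcripts stood out on 4 mouse arrays, where the muscle actin Acta1 and the myosin Myh4 both lay above the 75th percentile: knockout-labelled array 1 at room temperature (Acta1 1.86), knockout-labelled array 4 in the cold (2.59) and control arrays 1 and 2 in the cold (5.84 and 6.13). On the other mouse arrays Acta1 reached at most −0.04. Results that rest on these arrays are given without them as well.

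Detection split the members by setting. Of the 39, 14 were detected on all 32 arrays: Sema3b, Sema3f, Sema4a, Sema4b, Sema4c, Sema6b, Sema6c and Sema6d among the ligands, Plxna1, Plxna2, Plxnb2 and Plxnd1 among the receptors, the co-receptor Nrp2, and Slit3. Another 5 were detected on 0 arrays (Sema3a, Sema3d, Sema3e, Sema5b and Plxna4os1) and 6 on 1 to 4 arrays. Robo4, a Robo known from endothelium, was detected on 0 of 16 culture arrays and on all 16 mouse arrays. Its levels were −7.84 to −6.23 in culture, against 1.79 to 2.89 in mice. Sema6a, a membrane-bound ligand of class A plexins, was detected on 1 culture array and all 16 mouse arrays. Robo3, a Robo known from axons that cross the midline, showed the opposite pattern, with 12 culture arrays and 0 mouse arrays. Slit2 was detected on 1 array, a Pparg knockdown array, and was not tested in any comparison. Culture and mouse arrays differed in slide and scan day, so setting and slide cannot be told apart.

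**Figure D1:**
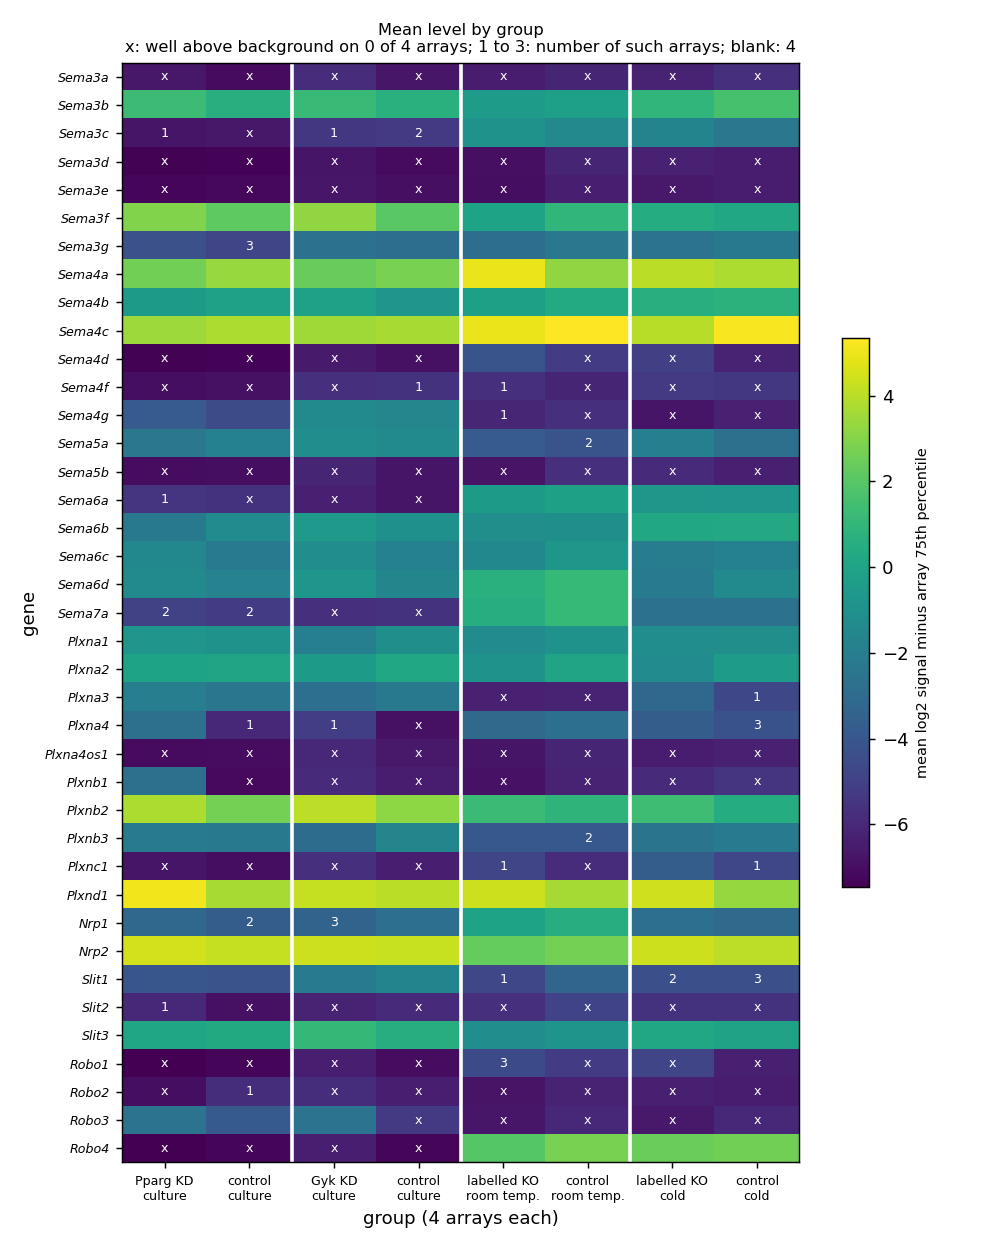
Mean level (log2 signal minus the array's 75th percentile, colour) of the 39 genes in the 8 groups, 4 arrays each; x marks a gene well above background on 0 of 4 arrays and a digit the number of such arrays where it was 1 to 3. Robo4 is marked x in all 4 culture groups and in none of the mouse groups; colours compare groups within a row, not rows.

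In culture the plexins Plxnd1 and Plxnb2 were higher in the Pparg knockdown, while Plxna1 (0.10), Plxna2 (−0.05) and Plxnb3 (0.03) were not called. Of the 39 members, 25 passed the filter on dim probes and were tested, and 16 were called at an adjusted p under 0.05, 12 higher and 4 lower. Over all 12844 genes tested, 34.8% were called, 17.8% higher and 16.9% lower. The median change of the 25 was 0.43, beside 0.01 for all genes. This depended on normexp background correction, an alternative that models background on the raw signals. With it the median of the 25 was −0.03, beside −0.08 for all genes, and 5 were called higher and 3 lower. Without the filter on dim probes the median of all 39 was 0.12, beside −0.02 for all genes. A gene bright in 1 group only could enter the test through that group alone, so the tested members are not the whole list. Plxnb1 and Plxna4 entered this test through the knockdown arrays and had to differ to be tested, and the same holds below wherever a gene is said to have entered through 1 group. The p-values of such genes are printed as fitted and support nothing on their own.

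Plxnb1, a receptor for Sema4d and other class 4 ligands, had levels of −2.94, −2.85, −2.60 and −2.59 on knockdown arrays 1 to 4, against −7.06, −7.29, −7.05 and −7.08 on control arrays 1 to 4. All 4 knockdown arrays were high, and on the control arrays the probe was not well above background. Each dim signal was set at the detection floor of its array, the faintest signal there that passed as well above background. With the main processing that gives a rise of at least 5.94-fold (limma adjusted p = 1.14e-07). That minimum does not hold under normexp, where the log2 change was 0.61 (adjusted p = 0.352, over all alternatives 1.71e-08 to 0.352).

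Plxna4, a class A plexin for Sema3a and class 6 ligands, had −2.73, −2.56, −3.24 and −2.43 in the knockdown, against −6.62, −4.71, −7.13 and −5.66 in the control (limma adjusted p = 0.000886). No control array reached the knockdown arrays, and 1 of 4 control arrays was well above background, so the fitted 3.29 is not read as a size. Its other probe was not well above background in either group. With normexp the change was 0.46 (adjusted p = 0.343, over all alternatives 0.000171 to 0.343).

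Plxnd1, the plexin that binds Sema3e and is known from vessel patterning, had 4.97, 4.90, 5.16 and 5.32 in the knockdown, against 3.67, 3.75, 3.49 and 3.78 in the control. Knockdown and control arrays lay well apart. The change was 1.42 (SE 0.11, 2.67-fold, limma adjusted p = 3.22e-05), and the gene's other probe gave 1.5. Plxnb2, a widely expressed receptor for class 4 ligands, had 3.71, 3.68, 3.86 and 3.80 in the knockdown, against 2.46, 2.61, 2.60 and 2.95 in the control. Every knockdown array was above every control array, by 1.11 on average (SE 0.11, 2.15-fold, limma adjusted p = 0.000108).

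Robo3 had −2.78, −2.77, −2.46 and −2.31 in the knockdown, against −4.26, −3.95, −3.77 and −3.44 in the control. It was detected on all 8 arrays, and the groups did not overlap (log2 1.27, SE 0.18, limma adjusted p = 0.000844; with normexp 0.27, adjusted p = 0.555, over all alternatives 1.51e-05 to 0.555). Among the ligands the largest change was a fall. Sema6b, a membrane-bound class 6 semaphorin, had −2.56, −2.45, −2.14 and −2.01 in the knockdown, against −1.47, −1.57, −1.11 and −1.07 in the control, without overlap (log2 −0.98, SE 0.16, limma adjusted p = 0.00185).

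The other ligands moved in both directions. The secreted Sema3b and Sema3f rose by 0.73 and 0.72, and the membrane-bound Sema4g and Sema6c by 0.72 and 0.67. Sema4a, known from immune cells and vessels, fell by 0.74, Sema5a by 0.53 and Sema4c by 0.31. Sema6d rose by 0.43, where its other probe gave 1.52. Among the receptors Plxna3 rose by 0.47 and Nrp2, the co-receptor that prefers Sema3f, by 0.25, where its other probe gave 0.91. The call of Nrp2 was lost without control array 1, 2 or 3 or knockdown array 1, 3 or 4 (adjusted p over all alternatives 0.00129 to 0.11). That of Sema4c was lost without control array 1, 2 or 4 or knockdown array 2, 3 or 4 (0.00295 to 0.48), and that of Sema5a without control array 2 (0.000825 to 0.0505). With normexp the calls of Plxna3 (0.04), Sema6c (0.24) and Sema6d (0.19) were lost and Sema4g turned to −0.14 (adjusted p = 0.779, over all alternatives 9.58e-05 to 0.779). The 9 tested members not called lay between −0.37 and 0.53. Nrp1, the co-receptor for Sema3a and for VEGF, differed between slides in both groups, and was well above background on 2 of 4 control arrays: −2.31 and −1.75 on knockdown arrays 1 and 2, against −2.46 and −2.26 on control arrays 1 and 2 of the same slide. On the other slide it was −4.43 and −4.09 in the knockdown and −4.92 and −5.04 in the control. Slit1 was at 0.15 and Slit3 at −0.22 (adjusted p = 0.271), neither called. With the replicate number as a block 20 members were called, 14 higher and 6 lower, and the slide as a block gave the same counts. Residuals correlated at 0.703 to 0.767 for arrays of the same number and at 0.69 to 0.725 for the other number on the slide. A pairing by number, apart from the slide, is therefore not established. The calls added by the replicate block were Slit3 (−0.22, SE 0.04, adjusted p = 0.00584), Sema4b (−0.37, 0.0338), Sema3g (0.53, 0.0352) and Nrp1 (0.52, 0.0167). Slit3 had −0.13, −0.08, 0.30 and 0.23 on knockdown arrays 1 to 4, against 0.12, 0.12, 0.49 and 0.45 on control arrays 1 to 4, so the groups overlapped and each knockdown array was below the control array of its number.

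Of 59 pathway partners listed (cytoplasmic mediators, co-receptors, heparan sulphate carriers and other ligands), 50 were tested here, 14 rose and 6 fell, with a median change of 0.15. The receptor kinase Mst1r fell by 1.91, and Trem2, a surface receptor of macrophages and related cells, by 1.35. The VEGF receptor Flt1 rose by 1.2 and the heparan sulphate carrier Sdc1 by 1.04. In the same arrays 5 of 5 mature fat cell markers fell (summed level 8.03 to 8.46 in the knockdown, against 9.48 to 9.74 in the control). Preadipocyte and fibroblast markers rose in 3 of 7 tested cases (summed level 2.72 to 2.78 in the knockdown, against 1.83 to 2.0 in the control), while Dpp4 of that list was on 0 arrays. Their part in the members' changes was not tested.

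**Figure D2:**
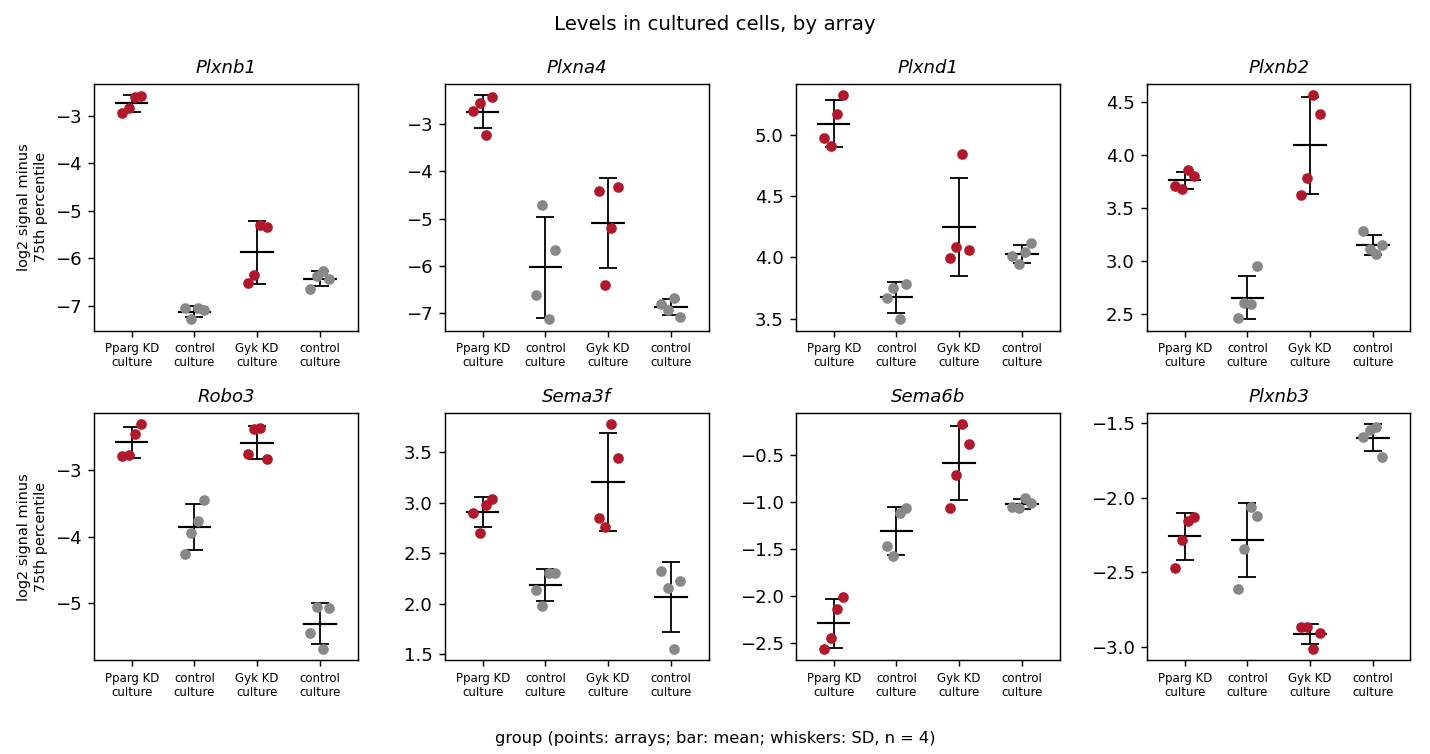
Level (log2 signal minus the array's 75th percentile) of 8 genes on each culture array (points), with the group mean (bar) and SD (whiskers, n = 4). Plxnb1 lies at −2.94 to −2.59 in the Pparg knockdown and below −5 in the other 3 groups, and Robo3 is higher in both knockdowns than in their controls.

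In the Gyk knockdown 6 of 22 tested members were called (27.3%), 5 higher and 1 lower, beside 8.64% of 12219 genes (4.5% higher and 4.14% lower). The median change of the 22 was 0.18, beside 0.01 for all genes. Leaving out any 1 of the 4 control arrays left 3 calls, as did leaving out knockdown array 3, and without knockdown array 4 there were 2.

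Robo3 was the largest. It had −2.75, −2.38, −2.37 and −2.84 on knockdown arrays 1 to 4, against −5.44, −5.05, −5.69 and −5.06 on the control arrays. It entered the test through the knockdown arrays, all well above background where the control arrays were not. With the main processing and dim signals at the detection floor, the rise was at least 5.77-fold (limma adjusted p = 0.000373). That minimum does not hold with normexp, where the log2 change was 0.80 (adjusted p = 0.135, over all alternatives 0.000279 to 0.135). Plxnb3, a class B plexin for Sema5a, fell. It had −2.87, −2.87, −3.02 and −2.91 in the knockdown, against −1.59, −1.55, −1.52 and −1.72 in the control, with narrow groups that did not overlap (log2 −1.32, SE 0.10, 2.49-fold lower, limma adjusted p = 0.000575). With normexp it was −0.66 (adjusted p = 0.0638, over all alternatives 0.000468 to 0.0638).

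Sema3f had 2.85, 2.76, 3.78 and 3.45 in the knockdown, against 2.33, 2.16, 1.55 and 2.22 in the control (log2 1.14, SE 0.27, limma adjusted p = 0.0389). Plxnb2 had 3.63, 3.78, 4.57 and 4.39 in the knockdown, against 3.29, 3.12, 3.06 and 3.15 in the control (log2 0.93, SE 0.22, limma adjusted p = 0.037). In both genes knockdown arrays 3 and 4, the dimmest of the series, were the highest, though the groups did not overlap. Within the slide of arrays 1 and 2 the differences were 0.56 for Sema3f and 0.50 for Plxnb2. Within the slide of arrays 3 and 4 they were 1.73 and 1.37. Without arrays 3 and 4, a choice made after seeing the data, Plxnb2 differed by 0.55 and stayed called, and Sema3f differed by 0.74 (adjusted p = 0.0953, over all alternatives 0.0196 to 0.119). Both calls were also lost on leaving out any 1 control array, or knockdown array 3 or 4, with adjusted p for Plxnb2 of 0.0203 to 0.108 over all alternatives.

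Sema4b, a class 4 ligand, had −0.24, −0.11, −0.07 and −0.12 in the knockdown, against −0.79, −0.86, −0.72 and −0.66 in the control (log2 0.62, SE 0.10, limma adjusted p = 0.0112). All 4 knockdown arrays were above all 4 control arrays, and arrays 3 and 4 did not stand apart from arrays 1 and 2. With normexp the call was lost (0.54, adjusted p = 0.0568, over all alternatives 0.00902 to 0.077). Slit3 had 0.81, 0.94, 1.16 and 1.36 in the knockdown, against 0.51, 0.59, 0.48 and 0.49 in the control (log2 0.55, SE 0.14, limma adjusted p = 0.0461). Its call was lost without arrays 3 and 4 (0.36, adjusted p = 0.0542), and on leaving out any control array or knockdown array 2, 3 or 4, with adjusted p up to 0.127 over all alternatives. The 16 members not called lay between −0.82 (Plxna1) and 0.86 (Sema6d). Of 48 partners tested 4 rose and 0 fell, with a median change of 0.07: Vegfc, a neuropilin ligand of lymphatic vessels (0.93), Sdc1 (0.87), the integrin chain Itgb1 (0.79) and the receptor kinase Erbb2 (0.63). In these arrays 0 of 5 mature fat cell markers were called and 4 of 5 brown fat markers fell.

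The knockdowns were set against each other in 1 fit as the difference of their effects, Pparg minus Gyk. It was called for 9 of 26 members, 5 higher and 4 lower, beside 12.8% of 13118 genes (6.25% higher and 6.52% lower). The effect of the Pparg knockdown was higher for Plxnb1 (3.83, with dim control and Gyk knockdown arrays), Plxnb3 (1.34), Plxnd1 (1.2), Plxna3 (0.97) and Sema4g (0.57, not called under 14 of 25 alternatives). It was lower for Robo3 (−1.45, with a dim Gyk control), Sema6b (−1.42), Sema4b (−0.99) and Slit3 (−0.77). Plxnb1 entered this fit through the Pparg knockdown arrays alone, so neither its value nor that of Robo3 is read as a size. The calls of Plxnb1, Plxnb3, Plxna3, Robo3 and Slit3 were each lost under 1 alternative. Over all alternatives the difference fell to 0.47 for Plxnb1 (adjusted p up to 0.649), 0.53 for Plxnb3 (0.315) and 0.13 for Plxna3 (0.839). For Robo3 it rose to −0.53 (0.531). Sema6b had opposite signs, called in the Pparg knockdown and at 0.44 without a call in the Gyk knockdown. The difference for Plxnb2 was 0.17 (SE 0.25, limma adjusted p = 0.728). Gk, the gene targeted in one of them, was lower in both: it fell by 1.46 in the Pparg knockdown (SE 0.10, limma adjusted p = 1.62e-05), and its difference of effects was 0.94 (SE 0.43, limma adjusted p = 0.177). The 2 knockdowns were run on different slides and scan days, so the difference of effects cannot be told apart from slide and day.

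**Figure D3:**
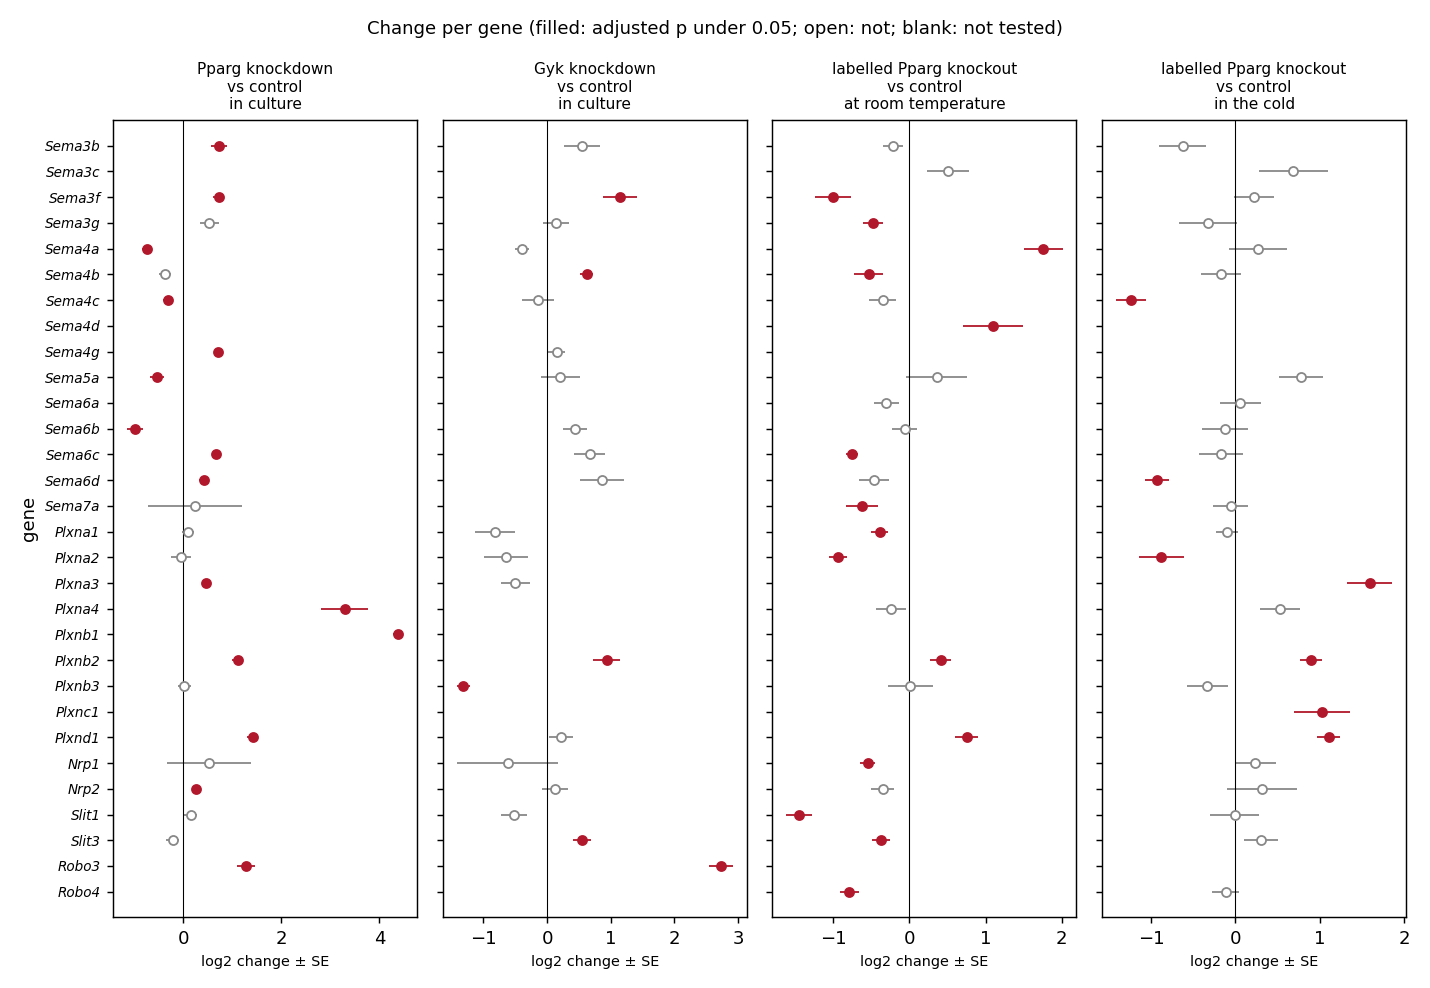
Log2 change (tested over control, with SE) of each tested gene in the 4 knockdown and knockout comparisons, filled where the adjusted p was under 0.05. Plxnb2 is filled and right of 0 in all 4 panels, and Sema3f is right of 0 in both culture panels and left of 0 in the labelled knockout at room temperature; the horizontal scale differs between panels.

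At room temperature more members were lower than higher on the arrays labelled Pparg knockout. Of 25 tested, 15 were called, 4 higher and 11 lower, beside 44.6% of 13233 genes (19.5% higher and 25.1% lower). The median change of the 25 was −0.35, beside −0.05 for all genes. Without knockout-labelled array 2, 8 were called, and without array 1, which carried muscle transcripts, 10. With normexp the median of the 25 was −0.29, beside −0.07 for all genes, and 2 were called higher and 5 lower. Without the filter on dim probes the median of all 39 was −0.39, beside −0.25 for all genes. Of all genes 2357 were then called higher and 5371 lower. Plxna4os1 and Sema3e, both undetected, averaged −6.75 and −6.99 on the arrays labelled knockout, against −6.15 and −6.38 in control. How much the higher intensity of the arrays labelled knockout adds to this was not tested.

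Sema4a led the rises. It had 5.18, 5.22, 4.76 and 4.67 on knockout-labelled arrays 1 to 4, against 3.74, 3.52, 2.82 and 2.71 on control arrays 1 to 4. All 4 arrays labelled knockout were higher, and the change of 1.76 (SE 0.25, 3.38-fold, limma adjusted p = 0.000876) stayed called under all 17 alternatives. On the slide of control arrays 1 and 2 the difference was 1.08, and on the other slide 2.43. Sema4d, a ligand of Plxnb1, Plxnb2 and the lymphocyte receptor Cd72, had −4.39, −4.06, −4.61 and −3.45 on the arrays labelled knockout, against −6.20, −4.93, −5.38 and −4.40 on the control arrays. It entered the test through the arrays labelled knockout, since the controls were not well above background, and the groups overlapped. With the main processing and dim signals at the detection floor, the rise was at least 1.26-fold (limma adjusted p = 0.0492). That minimum does not hold under every alternative, where the fitted log2 change ran from 0.113 to 1.377. The call was lost under 7 of 12 alternatives, among them leaving out control array 1, 2 or 3 (adjusted p over all alternatives 0.0111 to 0.832).

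Slit1 was lower. It had −4.78, −4.94, −4.89 and −4.40 on the arrays labelled knockout, 1 of them well above background, against −3.5, −2.93, −3.23 and −3.56 on the control arrays. All 4 control arrays were higher, and the gene entered the test through them (limma adjusted p = 0.000332). The fitted −1.45 is not read as a size, and with normexp it was −0.50 (adjusted p = 0.284, over all alternatives 0.000248 to 0.284). Sema3f had −0.12, −0.23, −0.36 and 0.62 on the arrays labelled knockout, against 0.63, 0.83, 1.26 and 1.23 on the control arrays. Array 4 labelled knockout came close to control array 1 without reaching it (log2 −1.01, SE 0.24, 2.01-fold lower, limma adjusted p = 0.00886).

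Plxna2, a class A plexin for Sema3 and class 6 ligands, had −1.04, −0.77, −1.02 and −0.86 on the arrays labelled knockout, against 0.29, −0.09, −0.05 and −0.09 on the control arrays, without overlap (log2 −0.94, SE 0.12, limma adjusted p = 0.000399). Robo4 had 1.81, 1.79, 2.08 and 2.18 on the arrays labelled knockout, against 2.89, 2.56, 2.69 and 2.89 on the control arrays, also without overlap (log2 −0.79, SE 0.12, 1.73-fold lower, limma adjusted p = 0.00136). Endothelial markers moved with these: 6 of 9 were lower and 0 higher, with a summed level of 4.69 to 4.79 on the arrays labelled knockout, against 5.10 to 5.60 on the control arrays, and all 9 were detected on every array. Red blood cell markers were lower in 3 of 3 cases (summed level 6.91 to 7.79 in the labelled knockout, against 7.6 to 8.92 in the control). Mature fat cell markers were lower in 5 of 5 cases (9.24 to 9.35 in the labelled knockout, against 10.18 to 10.56 in the control). Nerve and Schwann cell markers went the other way, higher in 4 of 6 tested cases and lower in 0. They summed to 5.36 to 5.64 in the labelled knockout, against 4.79 to 5.20 in the control. The part of these lists in the members' changes was not tested.

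Of the other called members, Plxnd1 was higher (4.20, 4.52, 4.37 and 4.38 on the arrays labelled knockout, against 3.43, 3.35, 3.69 and 3.99 on the control arrays; log2 0.75, SE 0.15, limma adjusted p = 0.0041). These values did not overlap, and its other probe gave 0.76. Plxnb2 had 0.97, 1.32, 1.21 and 1.54 on the arrays labelled knockout, against 0.76, 1.10, 0.73 and 0.81 on the control arrays. The groups overlapped (log2 0.41, SE 0.14, limma adjusted p = 0.0417), and the call was lost without control array 1, 3 or 4 or knockout-labelled array 2, 3 or 4 (adjusted p over all alternatives 0.019 to 0.124). Lower members were Sema6c (−0.76), Sema7a, a lipid-anchored semaphorin that acts on Plxnc1 and integrins (−0.62), Nrp1 (−0.55), Sema4b (−0.54), Sema3g (−0.48), Plxna1 (−0.39) and Slit3 (−0.37). Leaving out 1 array ended the call of Sema7a (control 1 or 3, labelled knockout 1 or 2) and of Sema4b (control 1, 3 or 4, labelled knockout 1, 2 or 3). It also ended that of Slit3 (control 1, 2 or 4, labelled knockout 1, 2 or 3), Plxna1 (control 4, labelled knockout 1 or 2) and Sema3g (control 2, labelled knockout 2). The 10 members not called lay between −0.46 and 0.51.

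Of 51 partners tested, 13 rose and 13 fell, with a median change of 0.06. Sdc2, a heparan sulphate carrier, rose by 2.26. The receptor kinase Met, which can pair with class B plexins, fell by 1.60 and Dpysl4 of the collapsin response mediator family by 1.39.

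In the cold 7 of 26 tested members were called on the arrays labelled Pparg knockout (26.9%), 4 higher and 3 lower, a share near the background of 31.9% of 12983 genes (13.7% higher and 18.2% lower). The median change of the 26 was 0.02, beside −0.05 for all genes. The 4 higher members were Plxna3, Plxnb2, Plxnc1 and Plxnd1, and Plxna3 and Plxnc1 entered the test through the arrays labelled knockout. Of the other plexins tested, Plxna2 was called lower, and Plxna1 (−0.10), Plxna4 (0.53) and Plxnb3 (−0.34) were not called. Without the 3 cold arrays rich in muscle transcripts, a choice made after seeing the data, 5 members of 24 tested were called.

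Plxna3, a class A plexin for Sema3f, had −3.44, −2.95, −3.17 and −2.94 on knockout-labelled arrays 1 to 4, against −5.45, −4.80, −4.48 and −4.12 on control arrays 1 to 4. Every array labelled knockout was above every control array, and the gene entered the test through them (limma adjusted p = 0.00339). With 1 of 4 control arrays well above background the fitted 1.59 is not read as a size. Sema4c, a class 4 ligand of Plxnb2, had 4.32, 3.97, 3.93 and 3.72 on the arrays labelled knockout, against 5.06, 5.61, 5.04 and 5.19 on the control arrays. All 4 control arrays were higher (log2 −1.24, SE 0.18, 2.36-fold lower, limma adjusted p = 0.00172).

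Plxnd1 had 4.22, 4.43, 4.43 and 4.57 on the arrays labelled knockout, against 3.27, 3.24, 3.16 and 3.57 on the control arrays (log2 1.10, SE 0.13, 2.15-fold, limma adjusted p = 0.000852). Here too the groups did not overlap, and the other probe gave 0.95. Plxnb2 had 1.27, 1.56, 1.25 and 1.46 on the arrays labelled knockout, against 0.60, 0.52, 0.31 and 0.54 on the control arrays, also without overlap (log2 0.89, SE 0.13, 1.86-fold, limma adjusted p = 0.00154). Plxnc1, the Sema7a receptor known from blood cells, had −3.94, −3.75, −3.59 and −3.53 on the arrays labelled knockout, against −4.35, −4.06, −5.80 and −4.71 on the control arrays. Control array 2 came closest to the labelled knockout, and 1 of 4 control arrays was well above background, so that the gene entered through the labelled knockout (limma adjusted p = 0.0449). Leaving out control array 1 or 4, or any array labelled knockout, ended the call (adjusted p over all alternatives 0.0169 to 0.141).

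Sema6d, a ligand of Plxna1, had −1.98, −2.23, −2.25 and −2.51 on the arrays labelled knockout, against −1.40, −1.27, −1.42 and −1.16 on the control arrays. The groups did not overlap (log2 −0.93, SE 0.14, limma adjusted p = 0.00207), but its other probe, detected on all 8 arrays, gave −0.09. With the mean of both probes it was −0.51 (adjusted p = 0.0682, over all alternatives 0.00138 to 0.22). Plxna2 was lower by 0.88 on the log2 scale (limma adjusted p = 0.0342). Its control arrays 1 and 2, at −0.08 and 0.10, carried muscle transcripts, whereas arrays 3 and 4 were at −1.21 and −0.39. Without the muscle-rich arrays Plxna2 differed by −0.43 (adjusted p = 0.298, over all alternatives 0.00396 to 0.298). Leaving out control array 1, 2 or 4 or knockout-labelled array 1, 3 or 4 ended its call too. The 19 members not called lay between −0.63 and 0.78, with Robo4 at −0.11 and Slit1 at −0.01. The other probe of Nrp2, not called at 0.32, gave 1.34.

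Markers of other cells moved with the labelled knockout in the cold. Macrophage markers were higher in 5 of 6 cases (summed level 4.41 to 5.20 in the labelled knockout, against 3.81 to 4.04 in the control). Preadipocyte and fibroblast markers were higher in 5 of 8 (7.28 to 7.82 in the labelled knockout, against 6.73 to 7.13 in the control), 0 of 9 endothelial markers were called, and mature fat cell markers were lower in 5 of 5 (9.05 to 9.46 in the labelled knockout, against 10.28 to 10.4 in the control). Of 7 nerve and Schwann cell markers 2 were higher (6.21 to 6.35 in the labelled knockout, against 4.45 to 5.06 in the control). Skeletal muscle markers summed to −2.70 to 4.30 in the labelled knockout, against −3.05 to 7.39 in the control. The markers were detected in both groups, and the part of these cells in the plexin changes was not tested. Of 54 partners tested 12 rose and 6 fell, with a median change of 0.22. Dpysl3 rose by 2.36, Sdc2 by 2.11, Trem2 by 1.51 and Rras, a GTPase that plexins switch off, by 1.39.

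**Figure D4:**
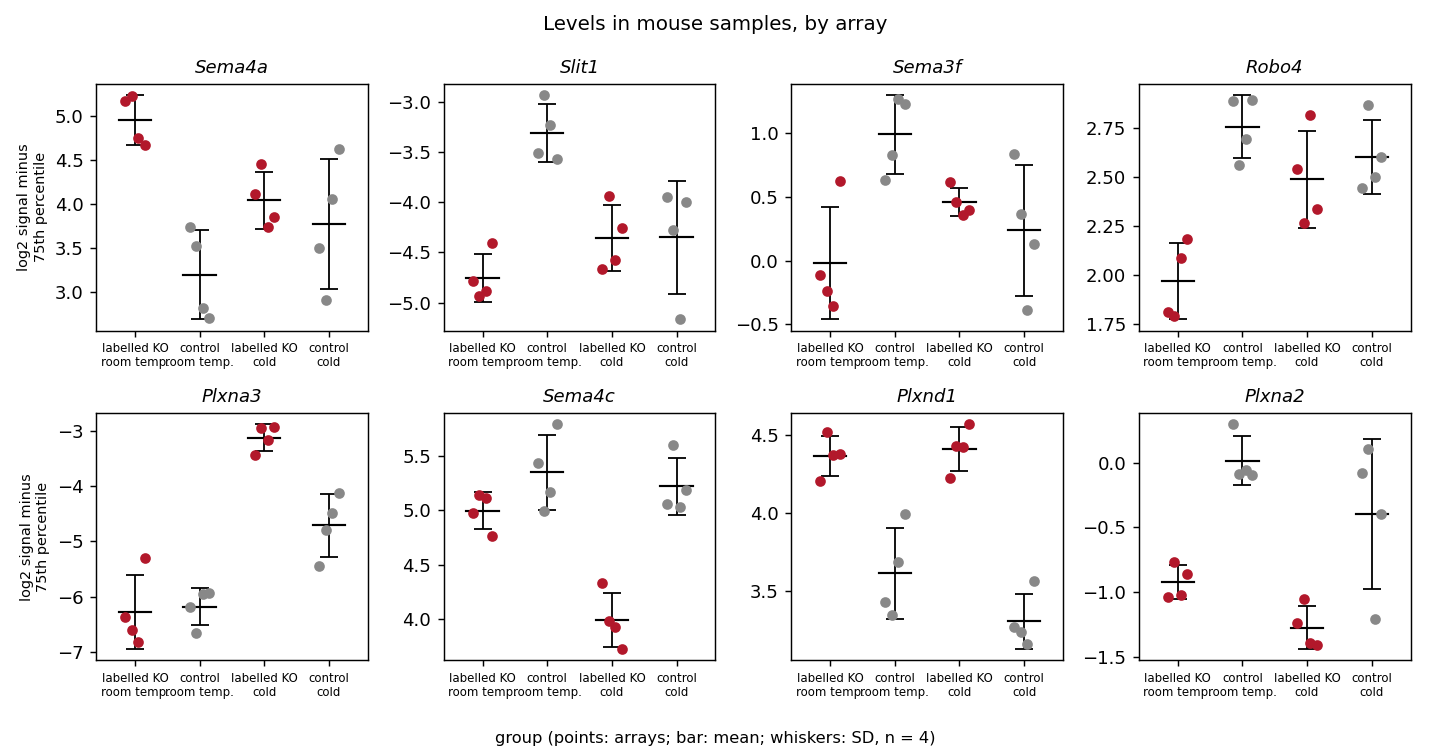
Level (log2 signal minus the array's 75th percentile) of 8 genes on each mouse array (points), with the group mean (bar) and SD (whiskers, n = 4). Sema4a separates the labelled knockout from control at room temperature and overlaps in the cold, and Plxnd1 is higher on every knockout-labelled array than on every control array of the same temperature.

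Across the 4 comparisons, 30 members were tested in at least 1 and 9 in none. How many of all genes were called in 1 or more of the 4 was not counted. Calls shared between comparisons are therefore only listed. Plxnb2 was called higher in all 4, Plxnd1 was higher in 3, and Sema3f was called in 3, higher in both knockdowns and lower in the labelled knockout at room temperature. For Plxnd1 the Gyk knockdown gave 0.22 (SE 0.19, limma adjusted p = 0.502). All members called in a comparison had the same direction on both of its slides (16 of 16, 6 of 6, 15 of 15 and 7 of 7). That is partly fixed, since they were called from the same arrays.

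The labelled-knockout effect differed between temperatures for 6 of 27 members, 4 more positive and 2 more negative in the cold, beside 13.3% of 14068 genes (6.13% and 7.2%). Sema4a differed by −1.49 (SE 0.46, limma adjusted p = 0.0463). In the cold it had 4.12, 4.46, 3.74 and 3.86 on the arrays labelled knockout, against 3.5, 2.91, 4.06 and 4.63 on the control arrays, so that the groups overlapped there. Sema3f differed by 1.23 (SE 0.35, limma adjusted p = 0.0344), with 0.62, 0.46, 0.36 and 0.40 on the cold arrays labelled knockout, against 0.84, 0.37, −0.39 and 0.13 on the cold control arrays. These also overlapped.

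Slit1 differed by 1.44 (SE 0.36, limma adjusted p = 0.0186), with 2 cold arrays labelled knockout and 3 cold control arrays well above background. Robo4 differed by 0.68 (SE 0.20, limma adjusted p = 0.0423), with 2.54, 2.26, 2.82 and 2.34 on the cold arrays labelled knockout, against 2.44, 2.86, 2.50 and 2.60 on the cold control arrays. Of 9 endothelial markers, 3 had a more positive effect in the cold. Sema4c differed by −0.88 (SE 0.26, limma adjusted p = 0.0371). Plxna3 was called (limma adjusted p = 0.0253), but 0 of 8 room-temperature arrays and 1 of 4 cold control arrays were well above background, so the fitted 1.68 is not read as a size. Without the 4 muscle-rich arrays the calls of Plxna3 (adjusted p = 0.162), Sema4c (0.156) and Robo4 (0.0752) were lost. Leaving out any 1 of knockout-labelled arrays 1 to 3 at room temperature left 1 call, and control array 3 or 4 at room temperature 2. Control array 3 or 4 or knockout-labelled array 1, 3 or 4 in the cold left 3. Of the 6, Slit1 kept its call whichever single array was left out, and lost it with normexp (0.84, adjusted p = 0.291, over all alternatives 0.0124 to 0.291). The calls of Robo4 and Sema4a were each lost under 15 of 25 alternatives, Sema4c under 13, Sema3f under 12 and Plxna3 under 7.

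Cold against room temperature gave larger changes than the genotype labels did for several ligands and co-receptors, but temperature cannot be told apart from slide and scan day. Of 27 members, 18 were called on the arrays labelled knockout, 10 higher and 8 lower (65.6% of all genes, 41.1% higher and 24.5% lower), and 19 on the control arrays, 8 higher and 11 lower (66.7% of all genes, 41.6% higher and 25.1% lower). The median of all genes was itself 0.24 and 0.23, or 0.07 and 0.10 with quantile normalization, so changes are given relative to the median. Calls and adjusted p-values are those of the changes before the median was subtracted. Relative to the median, Sema7a lay at −3.43 on the arrays labelled knockout and −3.99 on the control arrays. Its levels were −2.43, −2.40, −2.84 and −3.06 on the cold arrays labelled knockout, against 0.13, 0.46, 0.74 and 0.72 at room temperature. On the control arrays they were −2.44, −2.28, −2.98 and −2.80 in the cold, against 1.54, 0.73, 1.35 and 0.90 at room temperature, again with no overlap. In the Pparg cultures Sema7a, like Nrp1, differed between 2 slides of 1 scan day. On 1 slide it had −3.86 and −3.31 in the knockdown and −4.22 and −3.76 in the control. On the other it had −6.47 and −6.24 in the knockdown and −5.66 and −7.21 in the control. In the Gyk cultures Sema7a ran from −6.12 to −5.13 in the knockdown and −5.96 to −5.31 in the control.

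Nrp1 differed by −3.0 on the arrays labelled knockout and −3.78 on the control arrays, and Sema6d by −3.15 and −2.67. Nrp2, the other neuropilin, went up, by 1.82 on the arrays labelled knockout and 1.16 on the control arrays. Sema3b (1.21 and 1.62), Sema6b (1.05 and 1.12), Plxnb3 (1.16 and 1.51), Sema5a (1.61 and 1.2) and Slit3 (1.21 and 0.54) were also higher in the cold in both, with the labelled knockout given first. Plxna3 was higher in the cold on the arrays labelled knockout. It was dim at room temperature and entered the fit through the cold arrays. With dim signals set at the detection floor, the main processing gives at least 3.69-fold (limma adjusted p = 6.94e-07). That minimum does not hold under every alternative, where the fitted log2 change ran from 1.075 to 3.469 (main 3.15, adjusted p up to 0.0112). In the control it was detected on 1 cold array. Before subtracting the median, the changes of several genes shrank by over 1.5 times under an alternative. With normexp Sema7a gave −1.96 on the arrays labelled knockout (main −3.19), Nrp1 gave −1.42 (main −2.77) on these and −2.19 (main −3.55) on the control arrays. With the mean of both probes Sema6d gave −1.3 (main −2.91) and −1.0 (main −2.44), and Nrp2 on the control arrays gave 0.59 (main 1.39). With normexp the control calls of Sema5a (0.44, adjusted p = 0.138) and Plxnb3 (0.66, adjusted p = 0.0508) were lost, and on the arrays labelled knockout Sema5a gave 1.05 (main 1.85) and Plxnb3 gave 0.87 (main 1.4). Of 5 skeletal muscle markers 0 were called on the arrays labelled knockout and 3 were higher on the control arrays, and their part was not tested. Without the 4 muscle-rich arrays 18 and 19 members were called.

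**Figure D5:**
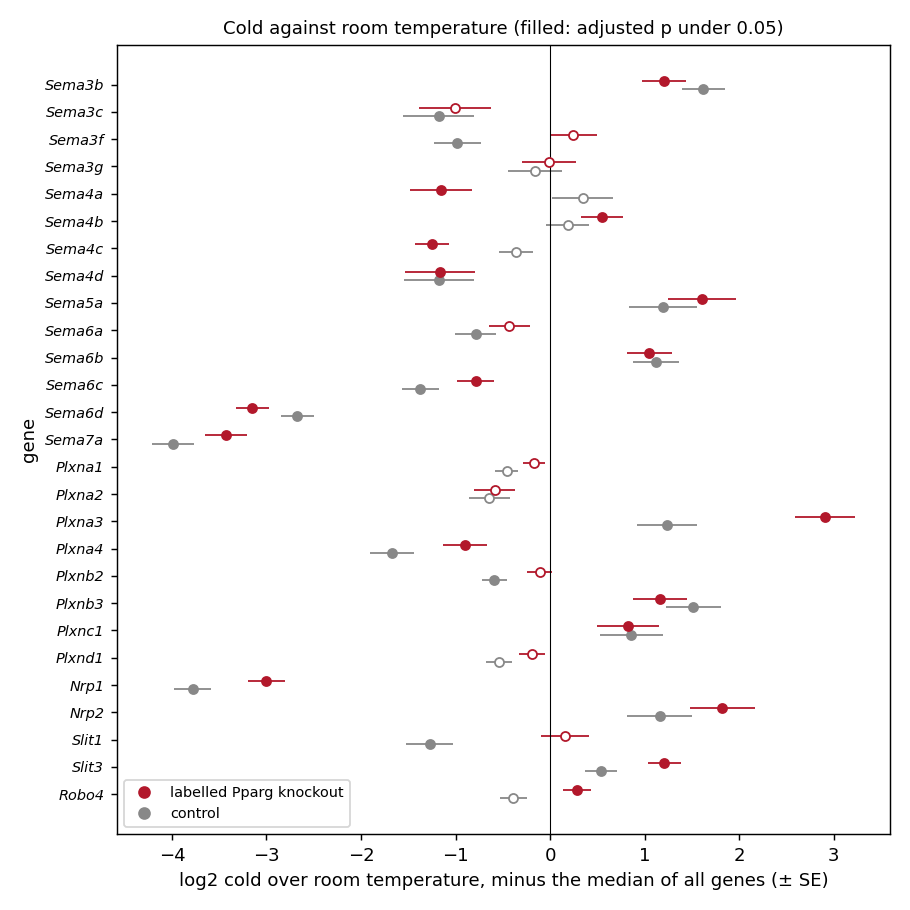
Log2 cold over room temperature of each tested gene, minus the median of all genes (with SE), for the arrays labelled Pparg knockout (red) and control (grey), filled where the adjusted p was under 0.05. The adjusted p is that of the change before the median was subtracted. Sema7a, Nrp1 and Sema6d lie below −2.5 in both genotypes, and Nrp2 and Sema3b lie above 1 in both.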

How the data were processed

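RNA was measured on one-colour Agilent arrays, 1 per sample. Per the file headers, the deposited intensity of each spot is on a linear scale: Agilent Feature Extraction 10.7.3.1 subtracted background and removed spatial trends array by array, with no scaling across arrays. Median intensities of spot and background, also deposited, were used for the normexp alternative, since mean signals are not in the columns at hand. The series-wide deposited values are the same intensities (relative difference 0).

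Of 44397 spots, 1377 controls and 101 to 247 outlier spots per array were left out. Log2 intensity minus each array's 75th percentile was used, spots of a probe being averaged. RefSeq's gene list (assembly GRCm38.p6) named 27234 of 39429 probes (69.1%). Probes passing the well-above-background flag on 4 or more arrays of a fit were tested with limma 3.58.1 in R 4.3.3 (lmFit, eBayes, 2-sided). Adjusted p-values are Benjamini-Hochberg over every gene of the fit, and the threshold was 0.05. Each knockdown and knockout was fitted with its own control (8 arrays), and temperature and differences of effects on 16 arrays. SD is over arrays and SE is from the fit. The fits were run on simulated arrays with independent noise and 200 changed genes. Log2 changes of 1 were recovered in 45% to 79% of cases and of 2 in 81% to 95%, depending on the comparison. Of the calls, 0.76% to 7.27% were false. Likeness of arrays on a slide and a larger share of changed genes were not simulated. The number of arrays limits the precision. No pair of arrays was identical (0 pairs, highest correlation 0.9937).

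Members, gene lists and tests were chosen with earlier results of these data known. Named genes are the 6 called members with the largest change per knockdown or knockout comparison with array values, the other called members by their change, members called in at least 3 comparisons or in the difference of knockout effects, and up to 4 called partners per comparison. Alternatives were normexp (offset 50), quantile normalization, the filter on dim probes, outlier spots kept, the mean of all probes, slide or replicate blocks and leaving out each array; leaving out muscle-rich or the dimmest arrays was chosen after seeing the data. In the Pparg knockdown, arrays of the same replicate number were alike (residual correlations 0.703 to 0.767). Arrays of the other number on the same slide were nearly as alike (0.69 to 0.725), so pairing by number cannot be told apart from slide. In the other experiments a pairing by number was not established. Residual correlations of the same number were 0.054 to 0.116 in the Gyk knockdown and −0.094 to 0.023 in the labelled knockout at room temperature. In the cold they were 0.041 to 0.499.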

Additional observations from a re-analysis of the deposited data

Results flagged for a closer look

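In 10 of 179 sets of 4 arrays of a detected member, 1 array stood apart from the other 3 by more than Dixon's limit for 4 values, and chance gives about 1 in 20. In culture these were Sema4a on Pparg knockdown array 4 (2.83, nearest other 2.57), Plxna2 on Gyk knockdown array 4 (−1.65, nearest −0.21), Plxnd1 on Gyk knockdown array 3 (4.84, nearest 4.09), Nrp1 on Gyk control array 2 (−4.41, nearest −2.28) and Sema4c on Gyk control array 3 (3.21, nearest 3.76). Gyk knockdown arrays 3 and 4 were the dimmest arrays. On the mouse arrays they were Sema6c on knockout-labelled array 3 at room temperature (−1.35, nearest −1.49), Plxna1 on knockout-labelled array 2 in the cold (−1.0, nearest −1.27) and Slit3 on knockout-labelled array 4 in the cold (0.84, nearest 0.08), an array that carried muscle transcripts. On control array 1 at room temperature Plxna2 (0.29, nearest −0.05) and Sema6a (−0.59, nearest −0.11) stood apart.

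The effect of the knockout label differed between cold and room temperature, tested as a difference of effects in limma, for Sema4a (−1.49), Slit1 (1.44), Sema3f (1.23), Sema4c (−0.88) and Robo4 (0.68). Plxna3 was called too (1.68), but its signal was not well above background on any of 8 room-temperature arrays and on 1 of 4 cold control arrays only, so that value is no size. Slit1 was called as well (1.44). It was well above background on 1 of 4 knockout-labelled arrays at room temperature, so its value is no size either. Temperature, slide and scan day cannot be told apart in these.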

How the results depend on the processing

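Normexp background correction left 8 called members in the Pparg knockdown, 1 in the Gyk knockdown, 7 in the labelled knockout at room temperature, 10 for cold in the control, 1 for the difference of knockout effects and 5 for the difference of knockdown effects. Sema4g then changed sign in the Pparg knockdown (−0.14) and in the difference of knockdown effects (−0.25), and so did Plxna4 (0.28) and Sema4d (0.39) for cold on the arrays labelled knockout. The cause was not tested. It moved the median of all genes in the cold labelled knockout (0.05, main −0.05), the difference of knockout effects (0.12, main −0.01) and the difference of knockdown effects (−0.14, main −0.03), and split the calls of all genes in the difference of knockout effects into 197 higher and 403 lower, against 862 and 1013.

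The replicate block left 2 called members in the Gyk knockdown, where a pairing by number was not established. It raised all-gene calls in the Pparg knockdown to 7468 (slide block 7647, main 4464), where arrays of a slide were alike. In the Gyk knockdown the replicate block gave 105 calls over all genes, normexp 250 and no filter 449, against 1056. Leaving out 1 array gave 13 to 16 called members in the Pparg knockdown, 2 to 7 in the Gyk knockdown, 8 to 13 in the labelled knockout at room temperature, 5 to 8 in the cold, 16 to 20 and 15 to 19 for cold in the control and the labelled knockout, 1 to 7 for the difference of knockout effects and 7 to 10 for that of knockdown effects.

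All-gene calls also moved by over 1.5 times with normexp in the labelled knockout at room temperature (2896, main 5901), in the difference of knockout effects (600, main 1875) and in that of knockdown effects (871, main 1675; slide block 3031). Without muscle-rich arrays the cold labelled knockout gave 2159 (main 4143). Leaving out Gyk control arrays 1 to 4 in turn gave 386, 341, 291 and 351 calls, and knockdown array 4 gave 640. Without knockout-labelled array 1 at room temperature the difference of knockout effects gave 1217. Probes near background limit Plxnb1, Plxna4, Robo3, Slit1, Sema4d, Plxna3 and Plxnc1.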
